A study of Rattus norvegicus with 6 samples.

Results

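The 4 genes described here encode the core of the interleukin-1 (IL-1) system, namely the agonist ligands Il1a and Il1b, the receptor antagonist Il1rn and the signalling receptor Il1r1. They were chosen by their rat Ensembl identifiers, ENSRNOG00000004575 for Il1a, ENSRNOG00000004649 for Il1b, ENSRNOG00000005871 for Il1rn and ENSRNOG00000014504 for Il1r1. All 4 were found among the 19133 genes of the expression table. The symbols came with this list of identifiers, since the table itself holds no gene names.

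Tenocytes, the resident cells of tendon, were grown from the Achilles tendons of Sprague–Dawley rats. The control group (3 libraries) received complete medium, and the IL−1β group (3 libraries) received complete medium with IL−1β protein at 50 ng/mL for 24 h. Polyadenylated RNA was sequenced as paired-end libraries, so the added protein itself contributed no reads. The study describes its data as coming from independent experiments, without saying whether the libraries of a group came from different animals, and the p-values measure only the spread between these libraries. Tenocyte and leukocyte markers were not examined, because the identifiers of the other genes could not be paired with symbols. The comparison asks how the genes for the cytokine, its antagonist and its receptor changed when the cells were given the cytokine.

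IL-1α and IL-1β bind the same receptor, IL1R1, which then recruits an accessory protein and the adaptor MyD88 and activates the NFκB and MAPK pathways. The antagonist encoded by Il1rn occupies IL1R1 without recruiting the accessory protein. IL-1β is made as an inactive precursor that caspase-1 cleaves, whereas the precursor of IL-1α is active. The genes for both agonists are well-known targets of NFκB in macrophages and fibroblasts, and IL-1 is known to induce its own transcripts. In tendon, IL-1β is a proinflammatory cytokine linked to matrix degradation.

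The 250 bases before the annotated transcript start of each gene are printed below, because all 4 genes are compared under the same stimulus and their promoters differ in composition. The sequences are from RefSeq (GRCr8 assembly), in which all 4 symbols were matched, and the coordinates are those of this assembly. The build used by the authors is not given in the sources used here. Capitals mark matches on either strand to the promoter box TATAAA, to the AP-1 motif TGANTCA, to a loose NFκB motif written as GGNNTTTCC, or to the C/EBP motif TTGCNNAA, none of which overlapped.
Il1a (chr3:136990018-136990267, minus strand): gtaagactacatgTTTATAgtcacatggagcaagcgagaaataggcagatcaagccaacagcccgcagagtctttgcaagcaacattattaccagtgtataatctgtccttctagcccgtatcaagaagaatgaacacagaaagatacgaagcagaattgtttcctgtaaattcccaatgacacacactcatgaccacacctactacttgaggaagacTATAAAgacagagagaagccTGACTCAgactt
Il1b (chr3:137036582-137036831, minus strand): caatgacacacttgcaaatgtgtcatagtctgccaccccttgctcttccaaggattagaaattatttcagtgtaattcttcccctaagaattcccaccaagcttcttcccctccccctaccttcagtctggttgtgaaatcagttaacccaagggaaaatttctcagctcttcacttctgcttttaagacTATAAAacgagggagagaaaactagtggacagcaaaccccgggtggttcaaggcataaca
Il1rn (chr3:27520072-27520321, plus strand): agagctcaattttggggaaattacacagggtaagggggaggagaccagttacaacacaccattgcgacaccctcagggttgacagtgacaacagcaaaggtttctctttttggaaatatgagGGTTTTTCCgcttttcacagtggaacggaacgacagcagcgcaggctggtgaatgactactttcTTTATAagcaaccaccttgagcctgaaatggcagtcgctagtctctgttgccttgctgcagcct
Il1r1 (chr9:50034133-50034382, plus strand): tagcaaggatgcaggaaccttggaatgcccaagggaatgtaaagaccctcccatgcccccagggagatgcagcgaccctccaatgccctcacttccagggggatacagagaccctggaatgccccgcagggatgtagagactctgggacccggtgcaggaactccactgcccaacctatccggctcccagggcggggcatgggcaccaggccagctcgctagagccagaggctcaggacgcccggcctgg

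The promoters of Il1a and Il1b each held TATAAA on the strand of the gene, beginning 32 bases before the start in Il1a and 60 bases before it in Il1b. TATAAA on either strand occurred in 12.9% of all 33469 promoter windows of this length. Il1a also held TGACTCA 12 bases before its start, a motif found in 6.34% of the windows. A match to the loose NFκB motif was found in Il1rn alone (GGTTTTTCC, 128 bases before the start), and that motif occurred in 5.19% of all windows. The window of Il1r1 held none of the 4 motifs. TATAAA was matched only on the opposite strand in Il1rn, 64 bases before the start, and in a further match in Il1a, 237 bases before the start. The C/EBP motif, present in 9.22% of the windows, was matched in none of the 4. The GC content was 42% for Il1a, 44% for Il1b, 48.4% for Il1rn and 63.6% for Il1r1, against a median of 51.2% over all windows. A match is a description of the letters and not a binding site. Only 1 annotated start per gene was read, and other starts, as for the forms of Il1rn, were not examined. Il1a and Il1b lie on chromosome 3 of this assembly with 1 annotated non-coding gene between them, whereas Il1rn lies elsewhere on chromosome 3 and Il1r1 on chromosome 9.

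The deposited values are FPKM (fragments per kilobase of gene and relative to the assigned fragments of the library). They are already divided by gene length and library depth, so levels of different genes are set side by side here. Such comparisons rest on the lengths used, which the values imply to be 1272 bases for Il1a and 3951 for Il1r1. The isoforms present were not examined. The values step in whole multiples of 1 read, and from these steps whole reads were recovered for all 19133 genes. The totals by which the authors had divided lay between 36619503 and 43227283 reads, and their ranges overlapped between the groups. The floor used here is 3 reads, which corresponds to between 0.0546 and 0.0644 FPKM for Il1a and between 0.0497 and 0.0587 FPKM for Il1b across the libraries. The floor and the intervals given for reads cover counting error only, since the reads carry no molecular identifiers used here.

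Il1a, which encodes the agonist IL-1α, went from the read floor to one of the larger rises in the table. In the control libraries 1, 2 and 3 its level was 0.0407, 0.0644 and 0 FPKM, from 2, 3 and 0 reads. In the IL−1β libraries 1, 2 and 3 its level was 71.5, 51.3 and 55.0 FPKM, from 3383, 2818 and 2577 reads. No control library exceeded the floor of 3 reads, and every IL−1β library lay far above it. The control mean was 0.0350 ± 0.0326 FPKM and the IL−1β mean 59.3 ± 10.8 FPKM (SD, n = 3 each). Relative to the library totals, the summed reads (8778 against 5) differed by a ratio of 1754, with an exact 95% interval for counting error of 751 to 5403. The log2 fold change in limma was 8.75 (standard error 0.21, adjusted p = 2.9e-07), on the log2(FPKM + 0.1) scale and after scaling between libraries. With so few control reads this value depends on the pseudocount, since pseudocounts of 1 and 0.01 gave 5.82 and 10.7. The standard error of Il1a depends on it as well, at 0.13 and 0.69 for these pseudocounts. Limma-voom on the recovered reads of the same genes gave a standard error of 1.31. The small standard error and adjusted p of the reported fit therefore hold for its pseudocount only. A gene was called when its adjusted p was below 0.05 and it changed by more than 1 on the log2 scale. By this rule 5.37% of the 12408 tested genes were called higher with IL−1β.

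Il1b, which encodes the same cytokine that was added to the medium, also rose from the floor. Its level in control libraries 1, 2 and 3 was 0, 0 and 0.0342 FPKM, from 0, 0 and 2 reads. In IL−1β libraries 1, 2 and 3 it was 17.9, 11.2 and 13.0 FPKM, from 930, 675 and 667 reads. The groups did not overlap, which held in the same direction for 31.2% of the tested genes. The control libraries were at or under the floor throughout. The control mean was 0.0114 ± 0.0198 FPKM and the IL−1β mean 14.0 ± 3.49 FPKM (SD, n = 3 each). The summed reads (2272 against 2) differed by a ratio of 1135 relative to the totals, with an exact 95% interval of 314 to 9378. The log2 fold change in limma was 6.94 (standard error 0.23, adjusted p = 1.1e-06), and pseudocounts of 1 and 0.01 gave 3.84 and 9.67. The standard error of Il1b was 0.16 and 0.62 for these pseudocounts, and 1.35 in limma-voom on the recovered reads of the same genes. The intervals of the read ratios of Il1a and Il1b overlap, so which of the genes rose by the larger factor cannot be told at this depth.

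Both agonist genes passed the filter on low values (0.5 FPKM or more in 3 or more libraries) only through the IL−1β group. Of all 19133 genes, 3886 had 3 reads or fewer in every control library. Of these, 67 passed the filter and were tested, and 31 of the 67 were called higher with IL−1β. The set was chosen by low control reads, so a rise is the change it most favours. This share is therefore no background for Il1a and Il1b. Among the 3886, Il1a had the highest mean level in the IL−1β group, and 2 genes, Il1a among them, lay above Il1b. This order is a description of these libraries.

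In the IL−1β group, where both agonists were well above the floor, Il1a was the more abundant agonist transcript. Its level exceeded that of Il1b by a factor of 3.99, 4.58 and 4.24 in IL−1β libraries 1, 2 and 3. Il1b thus made up 20.03%, 17.9% and 19.1% of the summed agonist level (19.0% ± 1.06, SD, n = 3). The excess of Il1a was present in each of the 3 libraries. In the control group the same share was 0%, 0% and 100%, which rests on 2 or 3 reads per library and cannot be read as a proportion. The share was therefore not compared between the groups.

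Il1rn, which encodes the receptor antagonist, was expressed at a low level in the control group and rose about 22-fold. Its level was 1.34, 1.20 and 1.04 FPKM in control libraries 1, 2 and 3, from 106, 90 and 89 reads. In IL−1β libraries 1, 2 and 3 it was 29.8, 23.5 and 26.6 FPKM, from 2260, 2075 and 1997 reads. All 6 libraries were above the floor, and the lowest IL−1β library exceeded the highest control library 17.5-fold. The control mean was 1.20 ± 0.151 FPKM and the IL−1β mean 26.6 ± 3.14 FPKM (SD, n = 3 each), a fold of 22.3 between the means. The log2 fold change in limma was 4.31 (standard error 0.13, adjusted p = 6.5e-07). With a pseudocount of 1 the log2 fold change was 3.60, and the other alternatives gave 4.21 to 4.42. Il1rn has secreted and intracellular forms that differ in their first exons, and the gene-level values do not separate them.

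Il1r1, which encodes the receptor that carries the signal of both agonists, was the only one of the 4 genes with a substantial level in the control group. Its level was 15.8, 14.3 and 13.5 FPKM in control libraries 1, 2 and 3, from 2408, 2073 and 2229 reads. In IL−1β libraries 1, 2 and 3 it was 75.8, 59.8 and 64.4 FPKM, from 11127, 10205 and 9367 reads. The groups did not overlap, as for 31.2% of the tested genes in the same direction. The lowest IL−1β library exceeded the highest control library 3.79-fold. The mean level rose from 14.5 ± 1.15 to 66.6 ± 8.24 FPKM (SD, n = 3 each), a fold of 4.59. The log2 fold change in limma was 2.13 (standard error 0.11, adjusted p = 7.2e-06). It lay between 2.02 and 2.21 under all 17 alternatives, so this fold change was the least dependent on the settings among the 4 genes. In bulk RNA, a change in the number of cells that express a gene and a change in the RNA per cell cannot be told apart.

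**Figure D1:**
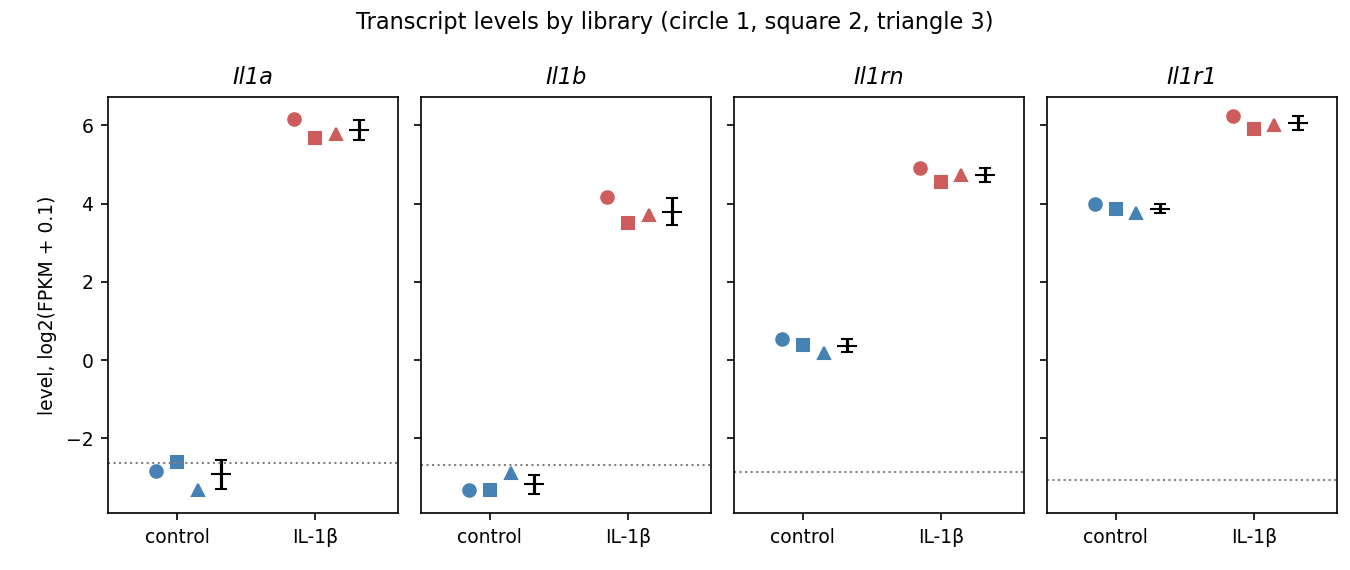
Level of each gene in each library, as log2(FPKM + 0.1), for the control (blue) and IL−1β (red) groups; circles, squares and triangles are libraries 1, 2 and 3, black bars are the mean ± SD (n = 3) and the dotted line is the mean value of 3 reads. Il1a and Il1b hold 3 reads or fewer in all 3 control libraries and lie close to the line or under it, Il1rn lies above it in every library, and Il1r1 starts highest.

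The order of the levels also changed between the groups. In the control group the order was Il1r1 at 14.5 FPKM, Il1rn at 1.20 FPKM, then Il1a and Il1b, whose values at the floor overlapped. In the IL−1β group it was Il1r1 at 66.6 FPKM, Il1a at 59.3 FPKM, Il1rn at 26.6 FPKM and Il1b at 14.0 FPKM. The levels of Il1r1 and Il1a overlapped between libraries (59.8 to 75.8 and 51.3 to 71.5 FPKM), although Il1r1 was the higher within each library. The ranges of Il1a and Il1rn, and of Il1rn and Il1b, did not overlap. Among all 19133 genes, the level of Il1a lay above 92.2% to 94.4% of the genes in the IL−1β libraries, and that of Il1b above 72.04% to 80.4%. The level of Il1rn moved from above 41.6% to 44.3% of the genes in the control libraries to above 84.1% to 87.3%. That of Il1r1 moved from above 76.5% to 79.2% to above 93.3% to 94.7%.

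Within the fit across all 12408 tested genes, Il1a ranked 7 by log2 fold change, Il1b 19, Il1rn 62 and Il1r1 241. All 4 ranks depended on the settings. They lay between 1 and 15 for Il1a, 3 and 44 for Il1b, 47 and 112 for Il1rn, and 129 and 519 for Il1r1. The rank of 519 came from limma-voom on 15591 genes. By the gain in mean FPKM, which does not favour genes that start near 0, the ranks were 157 for Il1a, 186 for Il1r1, 363 for Il1rn and 612 for Il1b. Il1r1 thus gained 52.1 FPKM against 59.2 for Il1a in spite of the smaller fold. Groups in which every IL−1β library lay above every control library were found for 31.2% of the tested genes, so this property alone is common in the table.

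**Figure D2:**
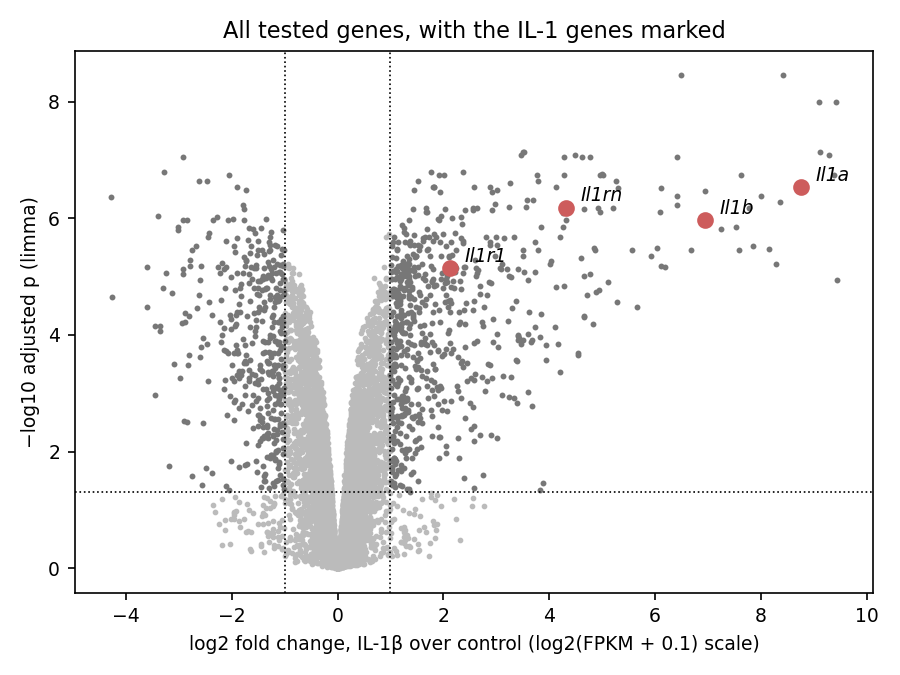
Each point is a tested gene (12408 in all), with its log2 fold change on the x axis and the −log10 of its adjusted p in limma on the y axis; dark points pass both thresholds (dotted lines) and red points are the 4 IL-1 genes. Il1a (8.75), Il1b (6.94), Il1rn (4.31) and Il1r1 (2.13) all lie on the side of higher levels with IL−1β.

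The balance between agonist and antagonist transcripts was compared within each library, where no scaling between libraries enters. In control libraries 1, 2 and 3 the level of Il1rn was 33.0, 18.7 and 30.5 times the summed level of Il1a and Il1b. In IL−1β libraries 1, 2 and 3 it was 0.333, 0.377 and 0.391 times that sum. The antagonist transcript was therefore in excess in every control library and the agonist transcripts in every IL−1β library. After a pseudocount of 0.1, the log2 ratio averaged 3.15 ± 0.19 in control and −1.45 ± 0.12 in IL−1β libraries (SD, n = 3 each; exact two-sided permutation test, p = 0.10, the smallest p this design allows). The control ratios rest on 2 or 3 agonist reads per library. The difference in the log2 ratio was −4.59, against −2.48 and −5.90 for pseudocounts of 1 and 0.01. Protein levels, which decide how much antagonist meets the receptor, were not measured here.

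Il1rn rose more than Il1r1 in relative terms, a comparison chosen after the values were seen. The level of Il1rn was 8.53%, 8.41% and 7.73% of that of Il1r1 in control libraries 1, 2 and 3. In IL−1β libraries 1, 2 and 3 it was 39.3%, 39.4% and 41.3%. The groups did not overlap, and the mean went from 8.22% ± 0.43 to 40.003% ± 1.12 (SD, n = 3 each; exact two-sided permutation test, p = 0.10, again the smallest possible). This separation restates the unlike fold changes of Il1rn and Il1r1 given above, so the test adds nothing to them. Receptor transcripts remained the more abundant of the pair in all 6 libraries. The summed agonist level in the IL−1β group was 1.18, 1.04 and 1.06 times that of Il1r1 in libraries 1, 2 and 3.

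**Figure D3:**
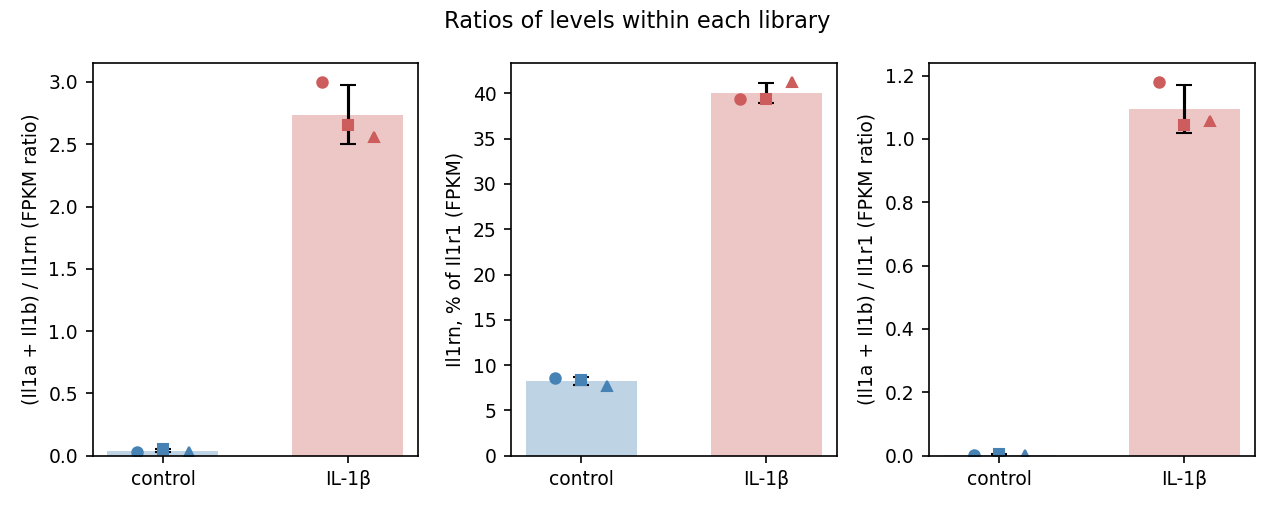
Ratios of FPKM levels within each library for the control (blue) and IL−1β (red) groups; bars are means, error bars are the SD (n = 3) and circles, squares and triangles are libraries 1, 2 and 3. Agonist transcripts reached 2.56 to 3.00 times the antagonist level with IL−1β, and Il1rn went from 7.73–8.53% to 39.3–41.3% of Il1r1.

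The 4 genes varied together among the IL−1β libraries. Each had its highest level in IL−1β library 1 and its lowest in library 2, both as deposited and after scaling. After scaling, library 1 exceeded the mean of libraries 2 and 3 by a factor of 1.38 for Il1a, 1.52 for Il1b, 1.22 for Il1rn and 1.25 for Il1r1. Of the 666 genes called higher with IL−1β, 66.8% had their highest scaled level in library 1 and 44.3% had the same order of all 3 libraries. The pattern is thus common among the genes that rose. The coefficient of variation between the IL−1β libraries was 18.2% for Il1a, 24.9% for Il1b, 11.8% for Il1rn and 12.4% for Il1r1. Without IL−1β library 1, the log2 fold changes in limma were 8.60 for Il1a, 6.74 for Il1b, 4.21 for Il1rn and 2.02 for Il1r1.

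Among the other tested genes, likeness was measured by the root-mean-square difference between log2 values centred on each gene's mean over the 6 libraries. The gene nearest to Il1r1 was ENSRNOG00000007457, at a difference of 0.053, which rose from 4.66 to 20.6 FPKM. The gene nearest to Il1rn was ENSRNOG00000047306, at 0.077, with a mean of 0.00617 FPKM in control and 2.01 FPKM in IL−1β libraries. The latter had 1 read in all control libraries together, so its likeness to Il1rn rests on the pseudocount. None of the 3 nearest genes of any of the 4 was another of the 4. The measure includes the difference between the groups, and the 4 genes have unlike fold changes. This result therefore restates the fold changes and says nothing on likeness within a group.

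**Figure D4:**
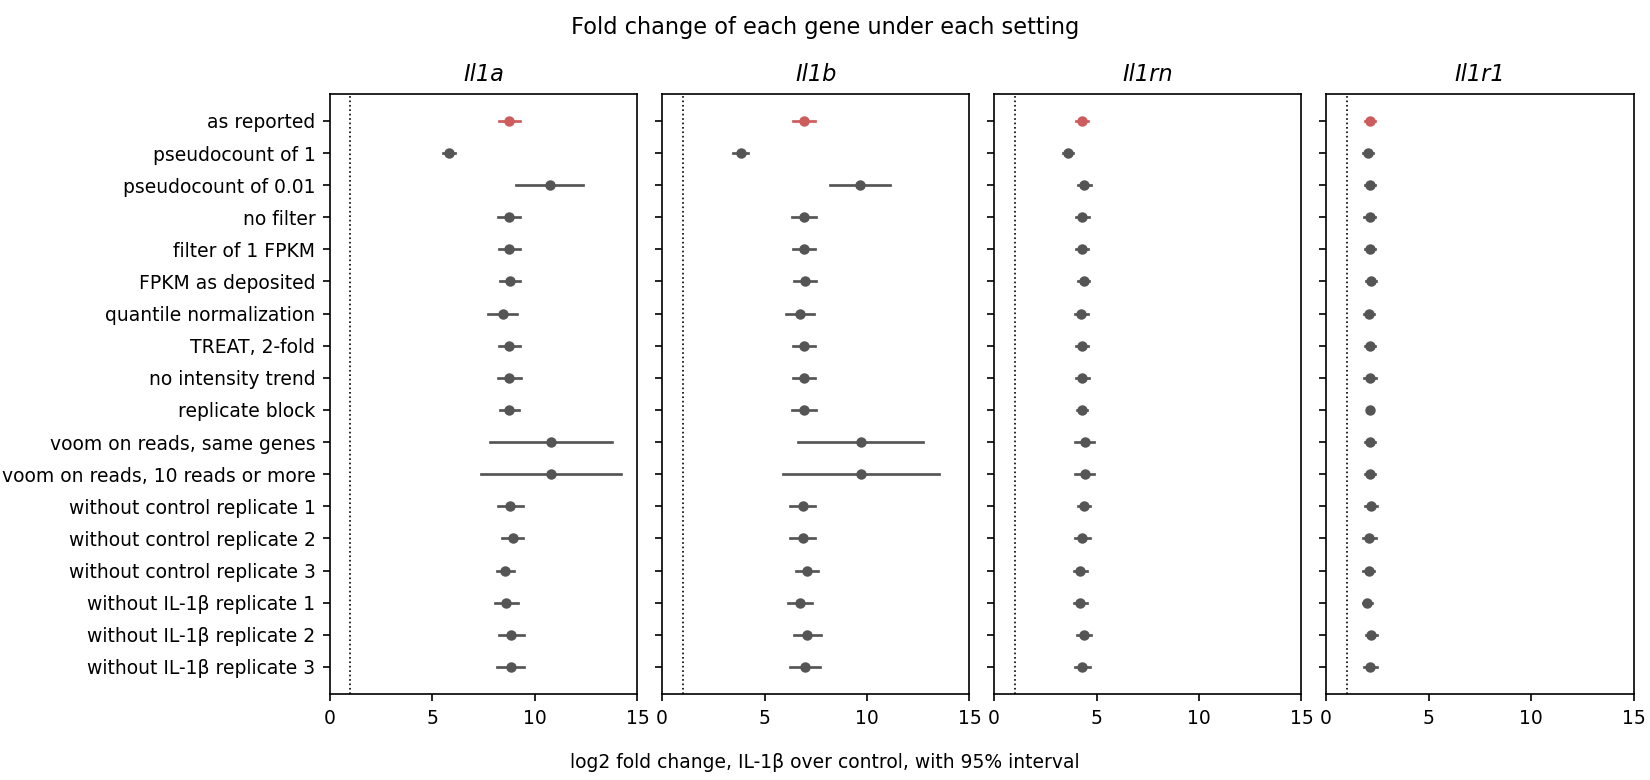
Log2 fold change of each gene in limma (points) with its 95% interval (lines) for the reported fit (red) and the 17 alternatives (grey); the dotted line marks a log2 fold change of 1. Il1r1 stays in a narrow range (2.02 to 2.21). Il1rn stays between 4.21 and 4.42 except at a pseudocount of 1 (3.60). Il1a (5.82 to 10.8) and Il1b (3.84 to 9.71) move more, with the pseudocount and with the fits on reads.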

How the data were processed

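Gene expression was measured by RNA sequencing in 6 libraries of rat tenocytes (3 control, 3 IL−1β), grouped by the treatment in the sample labels. The authors deposited FPKM values for 19133 genes, 1 column per library without pooling. HISAT2 and featureCounts are named in the submitters' processing notes without versions, and the build, the annotation and the use of strand are not given in the sources used here, so reads shared with overlapping genes cannot be separated. The study's own differential test was made on counts and was not repeated here.

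Whole reads were recovered from the FPKM steps with Python 3.11.15 and numpy 2.4.6 (tolerance 0.02 read, largest distance found 0.000276). The recovered reads numbered 36508034 to 43100569 per library. Size factors (median of ratios, from genes above 0 in all libraries) were divided out, log2(FPKM + 0.1) was taken, and genes at 0.5 FPKM or more in 3 or more libraries were fitted in R 4.3.3 with limma 3.58.1 (intensity trend, Benjamini-Hochberg adjustment over all 12408 genes). Calls required an adjusted p below 0.05 together with a log2 fold change beyond 1 in either direction. Exact permutation tests and exact binomial intervals used scipy 1.17.1. The recovery and the fit were tested on simulated data. The text names the 4 genes and the nearest genes of Il1r1 and Il1rn, the smallest distances, since without symbols at most 2 identifiers that rose could be named. The planned list of other IL-1 pathway genes and the cell type markers could not be read without symbols. The members, lists and tests were chosen with earlier results of these data known.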

Additional observations from a re-analysis of the deposited data

How the results depend on the processing

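All 68 fits of the 4 genes under the 17 alternatives kept the direction and both thresholds. These fits reuse the same 6 libraries and are not independent of each other. In the reported fit, 5.37% of the 12408 tested genes were called higher with IL−1β. The highest adjusted p in limma under the alternatives was 4.4e-04 for Il1a, 0.0017 for Il1b, 1.9e-05 for Il1rn and 3.8e-04 for Il1r1. Leaving out 1 library at a time gave log2 fold changes of 8.55 to 8.91 for Il1a, 6.74 to 7.09 for Il1b, 4.21 to 4.40 for Il1rn and 2.02 to 2.21 for Il1r1. Depth limits the control values of Il1a and Il1b, which hold at most 3 reads per library. Limma-voom on the recovered reads gave 10.8 for Il1a and 9.71 for Il1b on the same genes. The difference in the log2 ratio of Il1rn to the agonists ranged from −4.67 to −4.49 without 1 library, and its p cannot go below 0.20 there. The share of Il1b among the agonists allows no reading of a difference between the groups, since the control shares come from 2 or 3 reads per library. The computed difference of −14.3 percentage points ranged from −31.0 to 19.0 without 1 library, with 19.0 when control library 3, the single control library with Il1b reads, was left out.

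Of all tested genes, 1078 were called (666 higher, 412 lower). A pseudocount of 1, which shrinks changes at low levels, gave 697 with 231 lower. The TREAT test of limma, against a change of 2-fold, gave 520 (358 higher, 162 lower). Limma-voom, applied to every gene of 10 reads or more, gave 1540 (920 higher, 620 lower), out of 15591 tested in place of 12408. Without 1 library the total ranged from 1042 to 1108, the higher from 622 to 680 and the lower from 394 to 432. The higher share of calls moved with scaling, with 713 higher and 375 lower for the FPKM values as deposited and 602 higher and 489 lower with quantile normalization. Over all tested genes the log2 fold changes had a median of 0.058 and −0.051 in these fits, far less than the changes of the 4 genes. The replicate block gave 1080 genes and changed no call of the 4 (Il1a 8.75, Il1b 6.94, Il1rn 4.31, Il1r1 2.13). Same-numbered libraries deviated together only weakly (correlations across genes of 0.094, 0.021 and 0.034), against −0.087 to 0.061 for different numbers. With 3 libraries per group, these values cannot decide whether same-numbered libraries share an origin, which the sources used here do not state. Other IL-1 pathway genes have no values here, for want of symbols, so no alternative was run for them.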
